A study of Arabidopsis thaliana with 9 samples.

Results

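Small RNA was counted at 2129 nuclear loci of Arabidopsis thaliana that carry a later-assigned identifier and gave no count in RNA-seq. The loci were chosen from 37184 gene identifiers by 3 conditions. The identifier lies on a nuclear chromosome and its last digit is not 0, no read was counted in any of 3 dxo1-2 RNA-seq libraries, and the mean over 6 small RNA libraries is at least 50 counts. Arabidopsis genes were first numbered with a last digit of 0, so another last digit mostly marks a locus that was added to the annotation afterwards. Of 36899 nuclear identifiers 10545 ended in another digit, 5886 of these were silent in RNA-seq, and 2129 reached the minimum. AT3G41979 was left out by the rule. The minimum used the mean of both genotypes, so the level of these loci was chosen and is not a finding. Just inside the minimum stood AT2G06125 and AT2G06875 with a mean of 50.2 counts each, and just outside it AT1G06837 and AT4G06507 with 49.7 each.

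The tested plants were dxo1-2 mutants, with 3 small RNA libraries and 3 RNA-seq libraries, and they were set against wild-type Col-0 plants with 3 small RNA libraries. All were 21-day-old seedlings raised on soil, with seeds first kept for 2 days at 4 °C and plants then given 16 h of light a day followed by 8 h of darkness, and the design calls the replicates biological. The silence of a locus refers to dxo1-2 alone, since wild-type RNA-seq, which the design text places in another submission, was not analysed here. It also has a limit, because 3 counts correspond to 0.0421, 0.0499 and 0.0465 counts per 1e6 counts (CPM) in the 3 RNA-seq libraries.

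DXO1 belongs to the DXO family, enzymes that remove incomplete or unusual caps from the 5′ ends of RNA. In plants, transposons and other repeats are kept silent by small interfering RNAs (siRNAs), which are cut by Dicer-like proteins from double-stranded RNA and loaded onto Argonaute proteins that direct DNA methylation to the matching sequence. A locus can therefore give many small RNAs and hardly any long transcript. Small RNA libraries also hold pieces of structured RNAs such as tRNAs and small nuclear RNAs. The tables count reads per locus without their length or sequence, so these kinds could not be separated at any locus.

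Counts on genes were 5698185, 5137378 and 5022945 in the dxo1-2 small RNA libraries and 3976221, 4140212 and 4393015 in those of Col-0. The RNA-seq libraries held 71210737, 60138933 and 64478196. DXO1 (AT4G17620) had 60, 46 and 57 small RNA counts in dxo1-2 and 26, 45 and 21 in Col-0, a log2 fold change of 0.15 ± 0.28 (SE) that did not pass the test (adjusted p = 0.667). Its RNA-seq counts in dxo1-2 were 108, 76 and 113, and with no wild-type RNA-seq these do not check the label. In RNA-seq all 3 leaf markers stood above 1 CPM, with a summed level of 7782 to 9903 CPM, while 0 of 4 root markers and 0 of 4 flower markers reached 1 CPM. Small RNA reads on the leaf marker genes summed to 878 to 1092 CPM in dxo1-2 and 318 to 628 CPM in Col-0, and the part of this difference in the results that follow was not tested.

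By RefSeq class, 1492 of the 2129 loci were pseudogenes, 278 protein-coding genes, 139 transcribed pseudogenes, 110 long non-coding RNA (lncRNA) genes, 96 tRNA genes, 8 small nucleolar RNA (snoRNA) genes, 4 small nuclear RNA (snRNA) genes and 2 other non-coding RNA genes. Transposons have no class of their own in that table. Chromosomes 1 to 5 carried 316, 222, 556, 461 and 574 loci. Mean counts ran from 50.2 to 22149 with a median of 280. Nearly all loci had counts in both genotypes, which the minimum mean makes likely. Of the loci, 2127 had counts in every library, and 2025 had a mean of at least 50 counts in each genotype taken alone. Another 89 reached that mean only in dxo1-2 and 15 only in Col-0, in raw counts that are not adjusted for the deeper dxo1-2 libraries. Copies shared reads at some loci, with 53 loci in 23 groups whose counts matched within 1% or 1 count in all 6 libraries.

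Most of these loci changed little in dxo1-2, and more were lower than higher. Of the 2129 loci, all of which passed the expression filter, 711 (33.4%) were lower in dxo1-2 and 235 (11.0%) were higher at an adjusted p under 0.05 in edgeR's quasi-likelihood test, against 23.0% lower and 26.8% higher among all 11534 genes tested. Among the 6046 nuclear identifiers with the same minimum mean, 35.8% were lower and 15.2% higher. These include the loci, so part of any likeness is built in. The share of lower loci was near that of this background, and the share of higher loci was below it. Sets apart from the loci at the same minimum mean lay on either side in the share of higher identifiers. Silent identifiers ending in 0 had 7.09% higher and 35.8% lower, and later identifiers with RNA-seq counts 12.8% and 39.7%. The median log2 fold change (dxo1-2 over Col-0) was −0.15 for the loci, −0.16 for the 6046 identifiers and −0.019 for all genes tested. Changes were small: 95.6% of the loci lay between −1 and 1 on the log2 scale, 86 were lower by at least 1 and 8 were higher by at least 1. The CPM of the genotypes did not overlap at 1196 loci (56.2%, against 58.1% of all genes tested), with 357 higher in dxo1-2 (16.8% of the loci, against 31.1% of all genes tested) and 839 lower (39.4% of the loci, against 27.1%). In RNA from whole seedlings, fewer cells of a type and less RNA per cell cannot be told apart.

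The balance of higher and lower loci depended on how libraries were scaled. With TMM scaling on pseudogenes alone 457 loci were higher and 469 lower, with library totals 730 and 172, and with all lines of the tables as library size 1375 and 101. Relative to the median of all genes tested, the median of the loci was lower by 0.13 on the log2 scale under each of these 3 scalings and in the main comparison. The gap depended on which genes were tested: the median of the loci was higher by 0.017 with a minimum mean of 50 counts for every gene, and lower by 0.41 without a filter on low counts. The dxo1-2 libraries also had a smaller share of reads without a feature, 61.7% to 63.2% of all lines, against 66.2% to 68.4% in Col-0. The loci took 27.0%, 24.94% and 26.8% of the counts on genes in dxo1-2 and 24.5%, 24.88% and 21.7% in Col-0, which just fails to overlap, with means of 26.2% ± 1.12 in dxo1-2 and 23.7% ± 1.74 in Col-0 (SD, n = 3 each). With rRNA and tRNA genes left out, the means were 31.1% ± 0.311 in dxo1-2 and 29.8% ± 0.296 in Col-0. An exact two-sided permutation test of 3 against 3 libraries cannot go below 0.1, so such shares are given without a test.

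Gain and loss of a whole small RNA locus were rare. Calling a locus gained at a log2 fold change of at least 2 and lost at −2 or below, both past the adjusted p, 2 loci were gained (0.0939%, against 13.0% of all genes tested) and 8 were lost (0.376%, against 0.876%). Among the 6046 identifiers with the same minimum mean, 5.28% were gained and 0.728% lost. The minimum was set on the mean over both genotypes, so a locus could enter through the genotype in which it was high. AT1G06147 did so with 2014 summed counts in dxo1-2 and 0 in Col-0, and AT3G22955 with 5 in dxo1-2 and 2732 in Col-0. The rule thus took part in choosing the gained and lost loci. The 6046 identifiers include the loci and share the minimum, but not the condition of 0 RNA-seq counts in dxo1-2. Silent identifiers ending in 0 with the same minimum mean share both. Among those 1834, 0.0545% were gained and 0.436% lost, so few gains were not particular to these loci.

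AT1G06147, a lncRNA gene on chromosome 1, had 749, 617 and 648 counts in the 3 dxo1-2 libraries and 0 in all 3 Col-0 libraries. No other of the 2129 loci was without a count in a whole genotype. Its level was at least 140-fold higher in dxo1-2, computed against 3 counts per Col-0 library. It overlaps a RefSeq locus of another class, AT1G09035, which was not analysed here, so part of the reads may belong to that locus. AT4G00232, a protein-coding gene on chromosome 4, had 16.1, 16.2 and 16.4 CPM in dxo1-2 and 5.56, 1.58 and 3.20 CPM in Col-0. All dxo1-2 libraries lay above all Col-0 libraries, and the log2 fold change was 2.24 ± 0.31 (adjusted p = 9.8e-05).

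On the side of loss, AT3G22955, a pseudogene on chromosome 3, had 1, 4 and 0 counts in dxo1-2 and 1113, 838 and 781 in Col-0. Its log2 fold change was −9.64 ± 0.32 with an adjusted p of 4.8e-10, and the locus was close to empty in the mutant. The size of this change rests on 5 counts in dxo1-2, and without replicate 2, which held 4 of them, it was −11.14. AT2G32291, a transcribed pseudogene on chromosome 2, had 2.14, 1.46 and 1.04 CPM in dxo1-2 and 164, 113 and 105 CPM in Col-0. It fell by 6.32 ± 0.25 on the log2 scale (adjusted p = 1.6e-09), with a trace left in each mutant library.

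The other lost loci kept a clear remainder in dxo1-2, and all 6 are annotated as protein-coding. AT2G17305 had 21.6, 16.8 and 18.5 CPM in dxo1-2 and 134, 91.5 and 82.1 CPM in Col-0, a log2 fold change of −2.43 ± 0.18. AT5G08055 had 7.34, 5.29 and 7.79 CPM in dxo1-2 and 38.6, 22.3 and 27.4 CPM in Col-0 (−2.1 ± 0.23). The groups did not overlap at either locus. AT2G44925 had 9.48, 6.21 and 6.75 CPM in dxo1-2 and 28.1, 34.2 and 32.2 CPM in Col-0 (−2.06 ± 0.19). AT5G08315 had 11.2, 7.49 and 8.83 CPM in dxo1-2 and 44.7, 30.2 and 39.7 CPM in Col-0 (−2.05 ± 0.19). At both loci every mutant library was below every wild-type library. AT5G43755 had 9.33, 6.21 and 10.6 CPM in dxo1-2 and 64.7, 10.8 and 33.6 CPM in Col-0 (−2.05 ± 0.46), and its groups only just failed to overlap. AT1G44085, named after its values were seen because it completes the count, had 4.90, 3.65 and 8.48 CPM in dxo1-2 and 42.8, 7.10 and 21.6 CPM in Col-0 (−2.06 ± 0.50), and its groups overlapped. In both of these 1 Col-0 library was close to the mutant level.

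**Figure D1:**
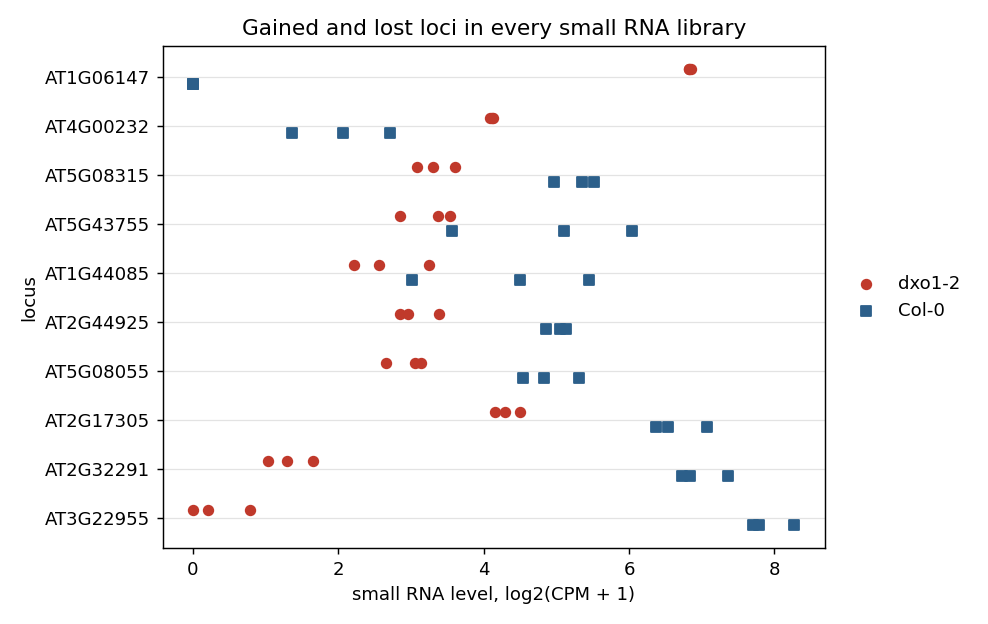
Small RNA level, as log2(CPM + 1), of the 2 gained and 8 lost loci in each library (red circles, dxo1-2; blue squares, Col-0; 3 libraries each). AT1G06147 is at 0 in Col-0, AT3G22955 is near 0 in dxo1-2, and AT1G44085 is the locus whose groups overlap.

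The 3 largest changes held under every alternative tried. AT1G06147, AT3G22955 and AT2G32291 stayed past both thresholds in all 17 alternative fits, AT2G17305 in 16 and AT4G00232 in 15. AT2G44925, AT5G08055 and AT5G08315 stayed past both in 11, AT5G43755 in 9 and AT1G44085 in 8. The adjusted p of these 10 loci did not exceed 0.0275 in any of these fits, and the calls that were lost missed the fold threshold. Without dxo1-2 replicate 2 the count of lost loci was 3, without Col-0 replicate 1 it was 4, and without Col-0 replicate 2 the gained AT4G00232 dropped out.

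Genes next to a gained or lost locus were mostly too low in small RNA to be tested. Of the 20 genes on either side in RefSeq order, 6 had enough small RNA counts to be tested, and 5 of these were higher and 0 lower in dxo1-2 (also in DESeq2, and 5 and 1 at an unadjusted p under 0.05), where 26.8% of all genes tested and 40.5% of protein-coding genes tested were higher. The remaining one, AT1G07237 beside AT1G44085, had −0.79 ± 0.36 and was not called (adjusted p = 0.0867). Of the 20 genes 2 places away 3 were tested, of which 2 were higher and 1, AT2G17320 near AT2G17305, was lower (−0.47 ± 0.18, adjusted p = 0.0477). Beside AT3G22955, PKP-ALPHA (AT3G22960), a plastid pyruvate kinase subunit, had 14.9 ± 1.43 CPM of small RNA in dxo1-2 and 5.28 ± 2.15 CPM in Col-0 (SD, n = 3 each). Its log2 fold change was 1.50 ± 0.26 with an adjusted p of 0.000606. Beside AT5G43755, KCS20, an enzyme of very-long-chain fatty acid synthesis, had 22.3 ± 1.29 CPM in dxo1-2 and 5.15 ± 2.33 CPM in Col-0, a log2 fold change of 2.1 ± 0.26. MEE50, next to the gained AT4G00232, rose by 2.88 ± 0.54, with 3.49 ± 1.08 CPM in dxo1-2 and 0.445 ± 0.145 CPM in Col-0. The neighbours of AT1G06147, LCR31 and RLP4, stayed under 1 CPM of small RNA in both genotypes, although RLP4, a receptor-like protein gene, stood at 35.3 ± 1.29 CPM in RNA-seq. Of the 20 neighbours 13 had at least 1 CPM in RNA-seq. The share over all genes is not given, and the other silent loci were not examined for this.

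The remaining large rises were modest in size. AT5G29591, a pseudogene on chromosome 5, had 82.9, 94.8 and 77.5 CPM in dxo1-2 and 22.5, 31.5 and 32.2 CPM in Col-0 (log2 fold change 1.56 ± 0.13). The next gene in order, AT5G29602, had 13.6, 26.5 and 22.5 CPM in dxo1-2 and 9.17, 10.5 and 9.59 CPM in Col-0 (1.08 ± 0.25). Both were higher in every mutant library than in any wild-type library. AT5G41765, a protein-coding gene, had 232, 255 and 242 CPM in dxo1-2 and 107, 100 and 84.5 CPM in Col-0 (1.32 ± 0.089). The transcribed pseudogene AT3G31906 rose by 1.20 ± 0.11, and the lncRNA genes AT3G06015 and AT1G06537 by 1.15 ± 0.23 and 1.07 ± 0.25.

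Medians are given by class without a test between classes. Among the 1492 pseudogenes 190 (12.7%) were higher and 384 (25.7%) lower in dxo1-2, near the 9.62% and 28.7% of all 3680 pseudogenes tested. The median log2 fold change of the 1492 was −0.078, close to that of the 3680 (−0.13), which include them. This median turned positive with TMM from pseudogenes (0.049), a minimum mean of 50 counts (0.069), library totals (0.25) and all lines as library size (0.50). AT5G31927, the pseudogene with the highest mean CPM, had 2028 ± 13.0 CPM in dxo1-2 and 2166 ± 59.0 CPM in Col-0 (SD, n = 3 each). That is a log2 fold change of −0.095 ± 0.068 with an adjusted p of 0.263. Other strong pseudogenes rose: AT5G31719 had 1464 ± 33.7 CPM in dxo1-2 and 1111 ± 48.7 CPM in Col-0 (0.40 ± 0.068), and AT5G29975 had 1821 ± 34.3 CPM in dxo1-2 and 1495 ± 82.8 CPM in Col-0 (0.28 ± 0.071). CPM are not divided by length, so these levels are not ranked against each other. Both loci that rose overlap a RefSeq locus not analysed here. Pseudogenes made up 77.8%, 76.8% and 77.5% of the counts of the 2129 loci in dxo1-2 and 70.8%, 70.8% and 71.1% in Col-0, and the groups did not overlap. These shares move with the tRNA share of the same total; with tRNA loci left out the pseudogene share averaged 82.6% ± 0.211 in dxo1-2 and 80.4% ± 0.348 in Col-0 (SD, n = 3 each).

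The protein-coding loci leaned further down, with 16 of 278 higher, 148 lower and a median of −0.37. All 6530 protein-coding genes tested showed the opposite, with 2642 higher, 1119 lower and a median of 0.48, but the 1972 with the same minimum mean had 507 higher, 822 lower and a median of −0.22. The median of the 278 loci was negative in the main comparison and under 6 of 7 other scalings, filters or minimum counts, and positive (0.21) with all lines as library size. AT2G06555, the protein-coding locus with the highest mean CPM, had 1708, 1788 and 1778 CPM in dxo1-2 and 1684, 1768 and 1759 CPM in Col-0, nearly the same level in all 6 libraries.

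Named genes among the silent loci, picked after their values were seen, show what kinds of gene they hold. The 4 LURE1 loci, LURE1.3, LURE1.4, LURE1.5 and LURE1.6, belong to a family of defensin-like peptides that attract pollen tubes to the ovule, and had −0.15 to −0.11 on the log2 scale with no call in edgeR or DESeq2 and 0 at an unadjusted p under 0.05. They lie within a few genes of each other, with mean levels between 327 and 360 CPM in dxo1-2 and between 354 and 394 CPM in Col-0. The counts of LURE1.4 and LURE1.6 matched within 1% in all 6 libraries, so these loci are not independent measurements. SADHU9-1 and SADHU8-1, members of a family of Arabidopsis retroposons, both fell, by 1.20 ± 0.089 and 0.76 ± 0.091. Of all 12 SADHU identifiers tested 7 were lower and 3 higher, 2 of them gained. SADHU9-1 had 46.7, 52.0 and 49.7 CPM in dxo1-2 and 121, 105 and 115 CPM in Col-0. Of the 3 small cysteine-rich peptide genes, SCRL15 (−0.51 ± 0.11) and CRP4 (−0.42 ± 0.14) fell and SCRL9 (−0.32 ± 0.15) was not called. ZIP8, listed as a transcribed pseudogene of a zinc transporter, fell by 1.73 ± 0.17, and SPH1, an S-protein homologue, by 1.56 ± 0.21. CYP79A3P, of the cytochrome P450 family, fell by 0.73 ± 0.15. CYP71B32, a cytochrome P450 gene (0.070 ± 0.089), and MBD3, a gene of the methyl-CpG-binding domain family (0.19 ± 0.19), were not called.

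Transcribed pseudogenes and lncRNA genes resembled the protein-coding loci. Of 139 transcribed pseudogenes 11 were higher and 72 lower with a median of −0.36, and of 110 lncRNA genes 10 were higher and 59 lower with a median of −0.42. The medians were −0.36 over all 401 transcribed pseudogenes tested (43.9% lower) and −0.49 over all 377 lncRNA genes tested (43.8% lower). At the same minimum mean, 48.7% of 271 transcribed pseudogenes and 55.4% of 175 lncRNA genes were lower, with medians of −0.33 and −0.44. Those shares were near the 51.8% and 53.6% of the loci. With all lines as library size the medians of the 139 and 110 loci turned positive, to 0.22 and 0.16. AT1G07017, the lncRNA gene with the highest mean CPM, had 390, 565 and 365 CPM in dxo1-2 and 556, 734 and 756 CPM in Col-0 (−0.63 ± 0.15, adjusted p = 0.0045), and its groups overlapped slightly. The transcribed pseudogene AT1G25053 had 716 ± 24.3 CPM in dxo1-2 and 811 ± 81.5 CPM in Col-0 and was not called (adjusted p = 0.0814). At the other end of the scale, AT1G07483, AT4G04675 and AT2G12845 had the smallest differences of all. AT2G12845 had 34.3, 33.2 and 30.5 CPM in dxo1-2 and 30.8, 35.0 and 32.2 CPM in Col-0.

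**Figure D2:**
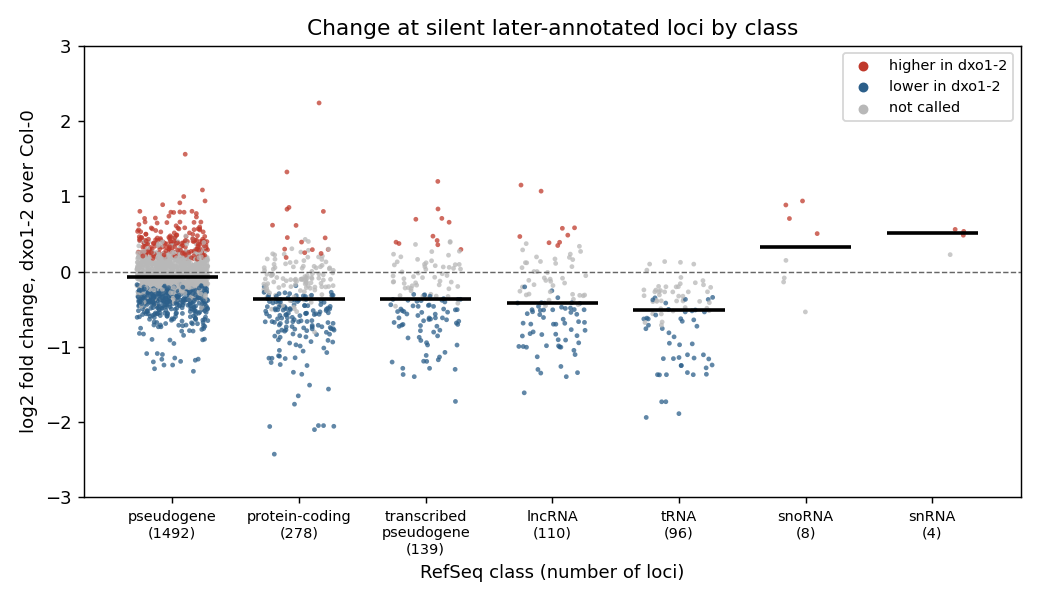
Log2 fold change (dxo1-2 over Col-0) of each locus by RefSeq class, with the number of loci below each class name (red, higher in dxo1-2; blue, lower; grey, not called; black bar, median; 3 libraries per genotype). The 3 loci beyond 3 in either direction, AT1G06147, AT2G32291 and AT3G22955, lie outside the axis, and the 2 other non-coding RNA genes are not drawn; the tRNA bar is at −0.51 and the pseudogene bar at −0.078.

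The tRNA genes were the class with the lowest median. None of the 96 was higher (0 also at an unadjusted p under 0.05 and in DESeq2), 48 were lower (44 in DESeq2) and the median was −0.51, against −0.39 for all 339 tRNA genes tested and −0.50 for the 193 with the same minimum mean. The tRNA median kept its sign under all scalings tried except all lines as library size, where it was 0.063. Their share of the counts of the 2129 loci was 5.60%, 7.22% and 6.13% in dxo1-2 and 11.4%, 12.2% and 11.7% in Col-0. The groups did not overlap, and the mean was 6.31% ± 0.825 in dxo1-2 and 11.8% ± 0.399 in Col-0 (SD, n = 3 each).

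The decrease was uneven across amino acids. All 10 tRNA-Glu loci were lower, with a median of −1.37, as were all 3 tRNA-Met loci (−1.16), all 6 tRNA-His loci (−0.64) and 7 of 10 tRNA-Ser loci (−0.99). None of 8 tRNA-Ala, 6 tRNA-Asn, 3 tRNA-Pro or 2 tRNA-Ile loci was called by edgeR, with medians of −0.22, −0.36, −0.56 and 0.13, although 2 tRNA-Pro loci were lower at an unadjusted p under 0.05 and in DESeq2. AT5G66755, a tRNA-Glu gene, had 14344, 13000 and 15719 counts in dxo1-2 and 31638, 33219 and 24973 in Col-0. It fell by 1.73 ± 0.12 on the log2 scale (adjusted p = 2.6e-07), with every mutant library below every wild-type library. AT5G27715 matched it within 1% in all libraries, as did AT4G37175, which had a few RNA-seq counts and is not among the loci. The tRNA-Glu gene AT3G50665 had 214, 215 and 241 CPM in dxo1-2 and 930, 949 and 689 CPM in Col-0, the lowest fold change of the class at −1.94 ± 0.11. The 10 tRNA-Glu loci held 6 distinct count profiles and all 96 tRNA loci 81, so copies are not independent measurements. All 10 tRNA-Glu loci stayed lower under the other scalings except with all lines as library size, where 9 did. For tRNA-His the calls did not hold, with 0 of 6 lower under library totals, all lines as library size or a minimum mean of 50 counts.

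**Figure D3:**
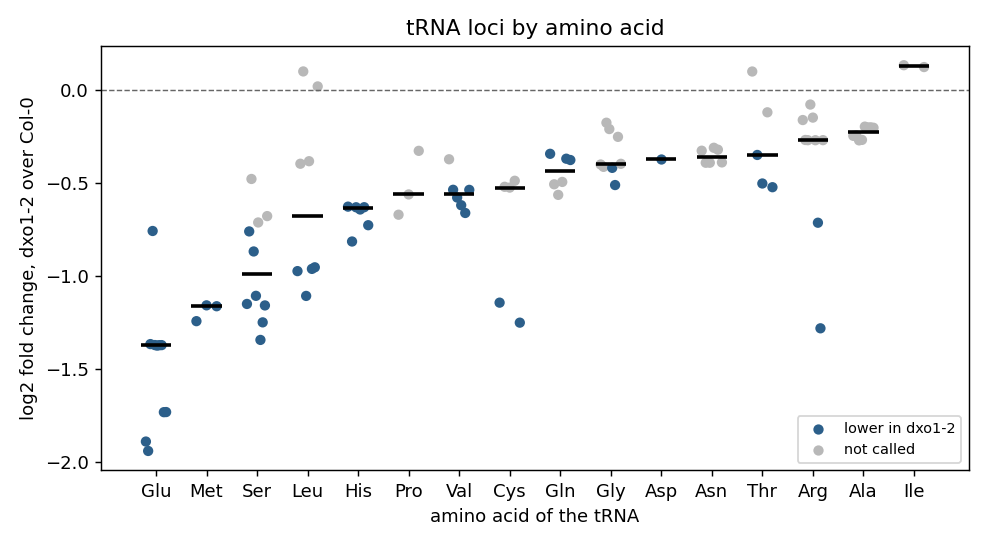
Log2 fold change (dxo1-2 over Col-0) of the 96 tRNA loci by amino acid (blue, lower in dxo1-2; grey, not called; black bar, median; 3 libraries per genotype). The amino acids run by median, with tRNA-Glu at −1.37 and tRNA-Ile at 0.13 at the ends.

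The few small nuclear and nucleolar RNA genes among the loci had positive medians. U6 is the small nuclear RNA at the catalytic centre of the spliceosome. U6-29 (AT5G46315) had 272, 278 and 348 CPM in dxo1-2 and 222, 196 and 201 CPM in Col-0 (0.53 ± 0.097), and U6.6 and U6.5 were higher by 0.56 ± 0.10 and 0.48 ± 0.096. U4.5, which had 15.9 ± 2.78 CPM in dxo1-2 and 13.6 ± 3.03 CPM in Col-0, was not called. Of the 8 snoRNA genes, whose products guide chemical modification of ribosomal and other RNAs, 4 were higher and 0 lower with a median of 0.33 (0 lower also at an unadjusted p under 0.05 and in DESeq2). This did not extend to the class: of all 170 snoRNA genes tested 13 were higher and 20 lower with a median of −0.14. The snRNA class did lean up, with 12 of 25 genes tested higher and a median of 0.50. AT1G04517 had 168, 167 and 171 CPM in dxo1-2 and 93.3, 73.1 and 108 CPM in Col-0 (0.89 ± 0.11), with no overlap, and it overlaps a RefSeq locus not analysed here. AT1G08347, AT1G08327 and AT1G04527, named after their values were seen, rose by 0.94 ± 0.097, 0.71 ± 0.21 and 0.51 ± 0.12. When libraries were scaled on small nuclear RNA genes themselves, 0 of the 4 snRNA loci were called, 2 of the 8 snoRNA loci were higher and 1 was lower, and the snoRNA median was −0.0081.

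Loci in crowded parts of the chromosomes had higher fold changes than the rest. Genes were taken in RefSeq order in runs of 500 per chromosome, and the loci were unevenly spread: 7 of the 74 runs that held any carried at least 100 each, 1275 in all. The runs were formed after earlier results of these data were known. In these dense runs 194 loci were higher and 269 lower with a median of −0.030, while among the other 854 loci 41 were higher and 442 lower with a median of −0.32. The medians differed by 0.29, and this difference was between 0.27 and 0.32 in the 17 alternative fits, in which the medians themselves moved with the scaling. All 10 gained and lost loci were outside the dense runs. In the dense runs 15.2% of the loci were higher and 21.1% lower, near the 14.0% and 22.3% of all genes tested there. All genes tested there include the loci, so part of this likeness is built in. Silent identifiers ending in 0 with the same minimum mean, a set apart from the loci, had 13.1% higher and 21.0% lower there. Shares of this size in dense runs were thus not particular to these loci. Of all genes tested elsewhere, which were not held to the minimum mean, 30.9% were higher and 23.2% lower, against 41 and 442 of the 854 loci. Silent identifiers ending in 0 with the same minimum mean were closer to the loci outside the dense runs, with 42 of 1163 higher and 516 lower. The lean downward outside the dense runs was thus not particular to these loci either. The 7 dense runs had medians from −0.14 to 0.097, and the 22 other runs with at least 10 loci from −0.81 to −0.057.

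The contrast was present within pseudogenes, protein-coding loci and transcribed pseudogenes and smaller in lncRNA genes. Pseudogenes had a median of −0.011 in dense runs (1108 loci) and −0.24 elsewhere (384 loci), and protein-coding loci −0.22 (80 loci) and −0.44 (198 loci). Transcribed pseudogenes had −0.087 in dense runs (54 loci) and −0.44 elsewhere (85 loci). For lncRNA genes the medians were −0.37 in dense runs, where 0 of 32 were higher (1 at an unadjusted p under 0.05 and 0 in DESeq2), and −0.46 elsewhere, where 10 of 78 were higher. Outside the rule the sets differed. Silent identifiers ending in 0 with the same minimum mean had a median of −0.063 in the dense runs (671 loci) and −0.26 elsewhere (1163 loci), but over all genes tested the median was −0.076 in the dense runs (2795 genes) and 0.032 elsewhere (8739 genes), the other way round. Leaving out tRNA loci, the ratio of counts in dense runs to counts elsewhere was 1.93, 2.03 and 2.01 in the dxo1-2 libraries and 1.68, 1.76 and 1.80 in those of Col-0, and the groups did not overlap.

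**Figure D4:**
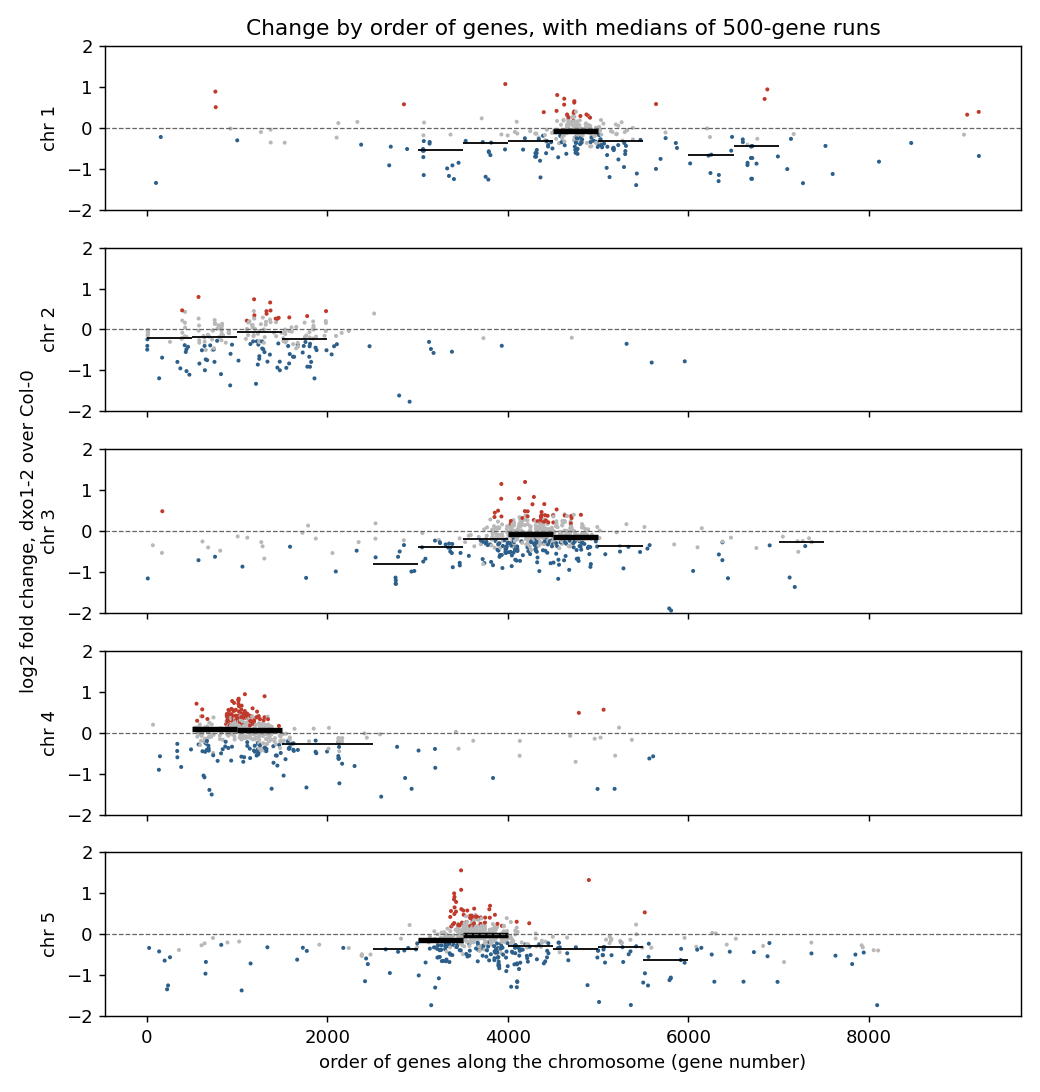
Log2 fold change (dxo1-2 over Col-0) of the loci by order of genes along chromosomes 1 to 5 (red, higher in dxo1-2; blue, lower; grey, not called). Black bars are medians of runs of 500 genes with at least 10 loci, thick where the run holds at least 100; the 10 gained and lost loci lie outside the axis, and the thick bars on chromosome 4 are the ones above 0.

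Chromosome 4 held the dense runs with medians above 0. It had 99 loci higher (21.5%) and 98 lower (21.3%), against 26.8% and 23.0% of all genes tested. Its median was 0.038, while the medians of chromosomes 1, 2, 3 and 5 were −0.22, −0.20, −0.17 and −0.17. Its 2 dense runs, AT4G03566 to AT4G06553 and AT4G06554 to AT4G08765, had medians of 0.097 and 0.077, and its 82 loci outside them a median of −0.37 with 44 lower. Within the dense runs, 350 neighbouring genes from AT4G05135 to AT4G07518 were picked after the medians of windows of 50 genes were seen. This stretch held 207 loci, of which 81 (39.1%) were higher and 15 (7.25%) lower, against 26.8% and 23.0% of all genes tested. The median of the stretch was 0.18. Since the stretch was picked by fold change, its calls, median and share of counts restate that choice. Its median was negative, −0.17, when libraries were scaled on small nuclear RNA genes, and positive under the other scalings tried. The 36 silent identifiers ending in 0 in the same stretch showed 13 higher and 1 lower with a median of 0.17. The stretch took 12.0%, 11.8% and 12.0% of the counts of the 2129 loci in dxo1-2 and 8.97%, 8.97% and 9.23% in Col-0.

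Neighbouring loci had similar fold changes. Over 877 pairs of adjacent loci that did not share a count profile, Spearman's rho of their log2 fold changes was 0.52, and it was 0.47 over 701 pairs within the dense runs and 0.48 over 176 pairs elsewhere. Such pairs share libraries and may share reads that span a boundary, so the value is a description. In all, 1256 loci had another one next to them and 873 stood alone. The longest unbroken row was 14 loci, AT4G07931 to AT4G07943, with 3 higher, 0 lower and a median of 0.12.

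**Figure D5:**
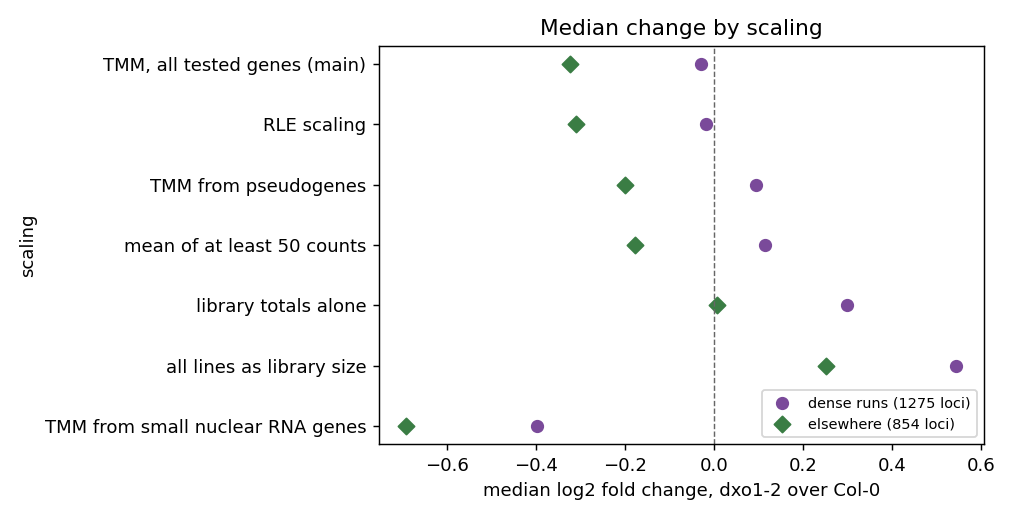
Median log2 fold change (dxo1-2 over Col-0) of the 1275 loci in dense runs (purple circles) and the 854 elsewhere (green diamonds) under each scaling or minimum count; no error bars are drawn. Both medians shift with the scaling, from −0.69 to 0.25 elsewhere, and the distance between them stays near 0.29.

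The genes of the siRNA machinery itself gave little small RNA. Of a list of 32 genes of siRNA production and RNA-directed DNA methylation, 5 were tested, 0 were higher and 1 was lower (in DESeq2 also 0 and 1, and 1 each at an unadjusted p under 0.05). DCL4, a Dicer-like enzyme of secondary siRNAs, had 5.31 ± 0.484 CPM of small RNA in dxo1-2 and 9.84 ± 4.25 CPM in Col-0 (−0.89 ± 0.31, adjusted p = 0.0312), and the call was lost in 4 of 6 fits with 1 library left out. CMT2, a DNA methyltransferase of long transposons, had 2.60 ± 0.447 CPM in dxo1-2 and 0.906 ± 0.843 CPM in Col-0 with an adjusted p of 0.0517. In dxo1-2 RNA-seq 30 of the 32 had at least 1 CPM, with AGO4, the main Argonaute of DNA methylation, highest at 39.7 ± 1.35 CPM and AGO9 lowest at 0.0942 ± 0.0392 CPM. Without wild-type RNA-seq no difference in these levels can be given.

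Loci outside the rule give the setting. Among 1834 silent identifiers ending in 0 with the same minimum mean, 130 were higher and 657 lower, 1 was gained and 8 were lost, with a median of −0.18. Among 741 later identifiers with RNA-seq counts and the same minimum mean, 95 were higher and 294 lower with a median of −0.20, and 23 were gained and 8 lost. Gained loci made up 0.0939% of the later identifiers without RNA-seq counts and 3.10% of those with them, a difference that was not tested. That split used RNA-seq of dxo1-2 alone, as the rule did. A locus transcribed only in the mutant would fall among those with counts, so the shares are a description. With the loci cut by mean count into 5 equal groups, from the lowest to the highest, the medians were −0.21, −0.20, −0.14, −0.11 and −0.097.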

How the data were processed

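Per the labels, RNA was extracted with Trizol from 21-day-old seedlings, RNA-seq libraries were stranded and made after removal of ribosomal RNA, and small RNA libraries were made by BGI. The authors deposited raw read counts per gene, 1 table per library with 37184 identifiers and 5 summary lines. The build was TAIR10, and the tools named are HISAT2, Bowtie, HTSeq, bedtools and DESeq2, per the submitters' processing notes. Versions, roles, strand setting and the treatment of reads with several matches are not given in the sources used here. Copies and overlapping or antisense loci can therefore share reads. Reads listed as matching more than 1 place made up 0 in small RNA libraries and 9.88% to 11.0% of all lines in RNA-seq.

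Symbols, classes and gene order came from a RefSeq table of TAIR10.1, which matched all 2129 loci; no coordinates are given, because the build of the counts has another name. No locus sequence was used here, and microRNA genes were not analysed.

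Deposited counts were tested with edgeR 4.0.16 (R 4.3.3; TMM, default expression filter, prior count 0.125, quasi-likelihood test, genotype as the only term), with Benjamini-Hochberg adjustment at 0.05 over 11534 genes. Log2 fold changes set dxo1-2 over Col-0. Their ± is an approximate standard error, the absolute change divided by the root of the F statistic. CPM are TMM-scaled with mean ± SD. The p-values measure the spread between these libraries. On data simulated after the small RNA comparison, with 11534 genes, the test called 58% of 100 genes changed by a log2 of 1, 94% of 100 changed by 2, and 0.0882% of 11334 unchanged genes. Few genes were changed there, as many up as down, while 26.8% were called higher and 23.0% lower in the data. The simulation does not cover an error of scaling, so its rates may not carry over. Alternatives used DESeq2 1.42.0, limma 3.58.1, other scalings, filters, minimum counts, a replicate block and fits without 1 library.

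The loci and lists were chosen with earlier results of these data known. Named loci were DXO1, the 8 largest rises and 8 largest falls past the threshold without overlap of the genotypes, the 6 highest in mean CPM, the 3 smallest differences, the highest of each class with at least 3 loci, and the 2 on either side of the minimum. Others were chosen after their values were seen.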

Additional observations from a re-analysis of the deposited data

How the results depend on the processing

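Counts of loci higher and lower in dxo1-2 followed the scaling. They were 457 and 469 with TMM from pseudogenes (3 lost, median log2 fold change −0.021), 487 and 417 with a minimum mean of 50 counts (3 lost, median −0.0014), 730 and 172 with library totals (3 lost, median 0.18), 1375 and 101 with all lines as library size (2 lost, median 0.43), and 14 and 1107 when small nuclear RNA genes set the TMM factors (1 gained, 15 lost, median −0.51). The median of all genes tested shifted by 0.12, 0.00091, 0.33, 0.57 and −0.37 in these fits; without a filter on low counts it shifted by 0.30 and the median of the loci was −0.12. DESeq2 called 179 higher and 551 lower. With 1 library left out, 166 to 193 were higher, 527 to 860 lower, 1 to 2 gained and 3 to 10 lost, with medians of −0.20 to −0.13. The difference of medians between dense runs and elsewhere, an alternative chosen after seeing the data, was 0.27 without rRNA and tRNA genes and 0.28 to 0.32 with 1 library left out. The siRNA gene list had 1 higher under RLE scaling, TMM from pseudogenes, all lines, library totals, limma-voom, no filter and without rRNA and tRNA genes. It had 0 lower under TMM from pseudogenes, all lines, library totals and a minimum mean of 50 counts, and 2 lower without rRNA and tRNA genes; with 1 library left out the ranges were 0 to 1 higher and 0 to 2 lower. The share of counts on the loci was 7.07% in dxo1-2 and 5.37% in Col-0 of all lines, and 31.1% in dxo1-2 and 29.8% in Col-0 without rRNA and tRNA genes. Of 572 alternative values of 34 named loci 512 kept direction and side of the threshold; those that reversed were AT5G29975 (−0.081 with TMM factors from small nuclear RNA) and, under all lines as library size, AT5G31927 (0.48), AT2G12845 (0.57) and AT1G25053 (0.39). Other scalings shift every locus by construction; the cause of the remaining changes was not tested.

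Replicate numbers did not pair the libraries: deviations of same-numbered libraries had correlations of 0.11, −0.095 and −0.035. With the replicate block 224 loci were higher, 711 lower, 2 gained and 6 lost, with a median of −0.15.

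Leaving out loci that overlap another counted identifier, chosen after seeing the data, gave 226 higher and 663 lower. With at most 3 RNA-seq counts allowed per library there were 2382 loci, with minimum means of 25 and 100 counts 2425 and 1705, and with shared count profiles taken once 2099. Depth limits the call of loci near 50 counts, and silence is known only down to 3 RNA-seq counts per library in 1 genotype.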
